A study of Caenorhabditis elegans with 12 samples.

Results

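The gene sod-5 encodes a cytosolic copper-zinc superoxide dismutase of Caenorhabditis elegans, and its loss was examined here in worms that already carried a mutation in isp-1. The comparison takes the 3 isp-1;sod-5 double mutant libraries against the 3 isp-1 single mutant libraries, 6 of the 12 libraries of the series, and covers every gene measured. The remaining libraries were 3 of wild type and 3 of the isp-1;sod-3 double mutant. Both groups compared carry the isp-1 mutation, so the difference is read on that background and no sod-5 single mutant was analysed here. The labels name genotypes without alleles. All animals were prefertile young adults grown at 20 °C on NGM plates with OP50 bacteria, and RNA came from whole worms. Per the design text, 9 biological replicates were grown for each genotype and 3 RNA isolates were combined into 1 library, while the pooling label reads none. Each genotype is thus represented by 3 libraries, and p-values measure the spread between these libraries, which may be partly technical.

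The protein ISP-1 is the Rieske iron-sulphur subunit of mitochondrial complex III, which passes electrons from ubiquinol to cytochrome c. Mutation of isp-1 slows respiration, development and egg laying and extends lifespan in worms, and part of that longevity has been tied to mitochondrial superoxide acting as a signal. Superoxide dismutases turn superoxide into hydrogen peroxide and oxygen. Worms have cytosolic forms encoded by sod-1 and sod-5, mitochondrial forms encoded by sod-2 and sod-3, and an extracellular form encoded by sod-4. In whole worms, sod-1 and sod-2 supply most of the activity, and sod-5 is known as a minor form that rises in dauer larvae and in daf-2 mutants.

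The values are CPM, a gene's count divided by the library's total count and multiplied by 1000000. Counted reads per library ranged from 8705573 to 16230927 for isp-1 and from 5438798 to 20014693 for isp-1;sod-5. A gene's log2 level varied more among the double mutant libraries, with a median SD of 0.27 against 0.13 among the isp-1 libraries. Markers of body muscle, pharynx, neurons, intestine, epidermis, oocytes and sperm were all present, and the 2 embryo genes with values summed to 1.83 to 3.86 CPM. None of the cell type markers was called, and the summed sperm markers reached 844 CPM in the third isp-1;sod-5 library against 434 to 646 CPM in the other 5. That same library stood apart in a gene-length trend described with its values below.

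The targeted transcript was close to the detection limit in both groups. In isp-1, sod-5 (WBGene00007036, WBcel235 chromosome II, 4417633 to 4419130) had 10, 6 and 1 reads, or 0.616, 0.523 and 0.115 CPM. In isp-1;sod-5 it had 2, 0 and 7 reads, or 0.188, 0 and 0.35 CPM, and the library with 0 reads allows a level of up to 0.552 CPM (3 counts, counting error only). The groups overlapped, and the mean difference of -0.239 CPM gave an exact two-sided permutation p = 0.3, where 3 against 3 libraries allow no p below 0.1. The labels do not say which part of the gene the mutation removes, so reads here neither show nor deny the loss. In isp-1;sod-3, by comparison, sod-5 had 129, 15 and 25 reads, or 0.832, 1 and 1.61 CPM, above every isp-1;sod-5 library.

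The other dismutase genes were not called. The major cytosolic form sod-1 stood at 135, 142 and 141 CPM in isp-1 and 149, 146 and 170 CPM in isp-1;sod-5 (log2 fold change 0.15, SE 0.09, limma with Benjamini-Hochberg adjustment, adjusted p = 0.574). The mitochondrial sod-2 stood at 98.6, 97 and 94.4 CPM in isp-1 and 111, 106 and 122 CPM in the double mutant (log2 fold change 0.22, SE 0.09, adjusted p = 0.322). For both genes every double mutant library lay above every isp-1 library, by a margin that did not pass the test. The inducible mitochondrial sod-3 was at 20, 18.6 and 20.7 CPM in isp-1 and at 15.1, 16.9 and 26.1 CPM in the double mutant, which overlap, and the extracellular sod-4 at 7.81 to 9.73 CPM and 8.18 to 12.4 CPM. The isp-1 transcript itself was at 332, 336 and 348 CPM in isp-1 and at 361, 373 and 451 CPM in the double mutant (log2 fold change 0.22, adjusted p = 0.474).

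Across the genome the double mutant differed from isp-1 at a small set of genes. Of 14013 tested genes, 169 were called, which is 1.21% of those tested: 90 were higher in isp-1;sod-5 (0.642%) and 79 were lower (0.564%). A gene is called here when limma gave an adjusted p below 0.05 on log2(CPM + 0.5), with all 12 libraries in the fit. An unadjusted p below 0.05 was found for 1659 genes. On the log2(CPM + 0.5) scale, which understates changes of low genes, 49 of the higher and 55 of the lower genes changed at least 2-fold. The median absolute log2 fold change was 1.15 over the called genes and 0.17 over all tested genes. In all 169 called genes the 3 libraries of one genotype lay entirely above or below the 3 of the other, which selection by a small p favours. The genes sod-1, sod-2 and hsp-6 separated in the same way without being called. The share of all tested genes that did so was not counted, so this separation adds no support to the calls.

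The count of calls was sensitive to single libraries and to scaling. It was 89, 90 or 92 without the first, the second or the third isp-1 library and 261 without the second isp-1;sod-3 library, which enters through the pooled spread, and lower calls numbered 49 without the second wild type library. With trimmed-mean (TMM) scaling the split was 103 higher and 140 lower, against 90 and 79 with the CPM as deposited. The pooled spread can understate that of isp-1;sod-5, whose median SD was 0.27 against 0.13 in isp-1. With only the 6 compared libraries in the fit, 117 genes were called.

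**Figure D1:**
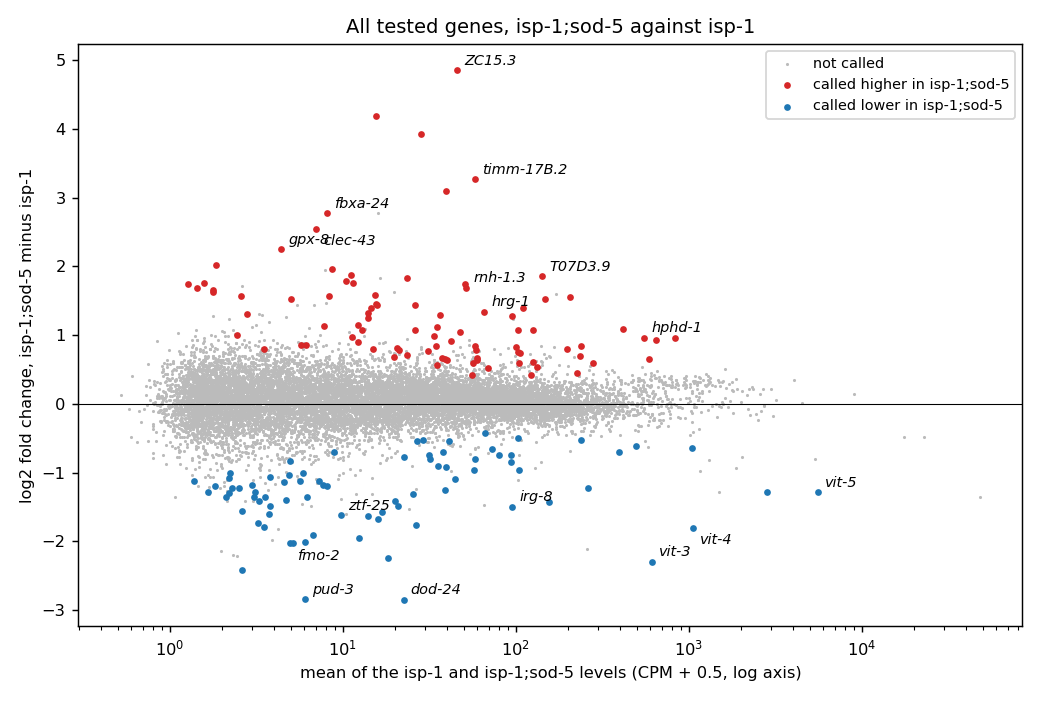
Each point is 1 of the 14013 tested genes, with the mean level of the isp-1 and isp-1;sod-5 groups on a log axis (CPM + 0.5) and the log2 fold change of isp-1;sod-5 minus isp-1 on the vertical axis. The 90 red and 79 blue points are called genes, and they reach from 4.85 for ZC15.3 to -2.85 for dod-24.

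Among genes with a locus name and a mean of at least 5 CPM, the largest rise was in timm-17B.2 (WBGene00017069, chromosome IV, 8396648 to 8397954). It encodes a homologue of TIM17, a component of the TIM23 translocase that moves proteins across the mitochondrial inner membrane. Its level was 10.7, 8.89 and 11.7 CPM in isp-1 and 94.4, 99.8 and 120 CPM in isp-1;sod-5. That is a 9.64-fold rise (log2 fold change 3.27, SE 0.15, limma adjusted p = 9.47e-08), and the groups were far apart. Wild type libraries had 3.88, 5.13 and 4.84 CPM and isp-1;sod-3 libraries 16.1, 18.7 and 15.5 CPM, so the sod-5 double mutant was the highest of the 4 genotypes. The direct comparison of the double mutants gave a log2 difference of 2.60 (SE 0.15, adjusted p = 2.9e-06).

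The C-type lectin gene clec-43 was at 1.66, 1.13 and 1.95 CPM in isp-1 and 10.8, 11.2 and 12.6 CPM in isp-1;sod-5 (log2 fold change 2.55, SE 0.20, adjusted p = 1.16e-05). The short-chain dehydrogenase gene dhs-25 was at 62.5, 61.9 and 55.5 CPM in isp-1 and 151, 141 and 189 CPM in isp-1;sod-5 (log2 fold change 1.4, SE 0.11, adjusted p = 1.16e-05). Its wild type libraries, at 131, 129 and 135 CPM, lay close under the double mutant and well above isp-1. The gene rnh-1.3, of the ribonuclease H family that cuts RNA paired with DNA, was at 28.2, 20.8 and 22.7 CPM in isp-1 and 84.3, 66.6 and 84.2 CPM in isp-1;sod-5 (log2 fold change 1.69, SE 0.18, adjusted p = 0.000274). Here the wild type libraries were the lowest, at 4.59, 3.85 and 4.41 CPM. Xanthine dehydrogenase, xdh-1, which makes uric acid from purines, rose from 47.1, 60.1 and 54.8 CPM to 138, 162 and 101 CPM (log2 fold change 1.28, SE 0.15, adjusted p = 0.000436). Its wild type level of 53.9, 55.9 and 51.3 CPM was within the range of isp-1.

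The remaining 7 of the 12 largest rises spanned log2 fold changes from 1.25 to 2.77. The F-box gene fbxa-24 had the largest of them and rose from 1.55 ± 0.481 to 13.7 ± 4.76 CPM (SD, n = 3; adjusted p = 0.00149). The lectin gene clec-72 rose from 4.28 ± 1.62 to 15.6 ± 3.71 CPM and the omega-class glutathione transferase gsto-1 from 20.6 ± 3.63 to 51.1 ± 7.6 CPM. The isp-1;sod-3 means of fbxa-24, clec-72 and gsto-1 were 13.6, 15.9 and 45.3 CPM. The degenerin-type channel genes delm-2 and acd-1, which lie next to each other on chromosome I, rose by 1.96 and 1.25 on the log2 scale. Their calls were less firm than the others: delm-2 lost its call without any one of the 3 isp-1 libraries or the second or the third isp-1;sod-5 library, and acd-1 without any one of the isp-1, isp-1;sod-5 or wild type libraries. The last 2 were the heme genes hrg-1 and hrg-2, described with their group.

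The largest fall in the named set was in dod-24, a CUB-like domain gene known to lie downstream of the FOXO factor DAF-16. It was at 41, 43.7 and 31.6 CPM in isp-1 and 3.48, 4.96 and 6.7 CPM in isp-1;sod-5, a 7.22-fold fall (log2 fold change -2.85, SE 0.27, adjusted p = 7.82e-05). The double mutant was also under wild type, at 24.8, 16 and 17.5 CPM. Of the 8 tested dod genes, 1 was called and the list's median log2 fold change was -0.14, against 0.05 over all tested genes, of which 1.21% were called. The gene pud-3, named for its protein's rise in daf-2 mutants, was at 18.4, 5.93 and 6.32 CPM in isp-1 and 0.94, 0.552 and 0.999 CPM in isp-1;sod-5 (log2 fold change -2.84, SE 0.51, adjusted p = 0.0151). The groups did not overlap, as in every called gene, and the first isp-1 library stood far above the other isp-1 libraries. The pud-3 call was lost without it, without the second or the third isp-1;sod-5 library, and with edgeR. Its neighbour pud-4 is similar in sequence and reads may be split between them.

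The zinc finger gene ztf-25 (chromosome V, 17601820 to 17602970) was at 16.4, 13.3 and 13.2 CPM in isp-1 and 4.23, 4.23 and 4.4 CPM in isp-1;sod-5 (log2 fold change -1.62, SE 0.16, adjusted p = 9.05e-05). The wild type libraries, at 8.72, 9.08 and 8.9 CPM, and the isp-1;sod-3 libraries, at 14.3, 14.7 and 10.8 CPM, all lay above the sod-5 double mutant. The difference between the double mutants was -1.51 on the log2 scale (SE 0.16, adjusted p = 0.00063). Of the other falls, hbl-1, the hunchback-like factor that times larval cell fates, went from 36.7, 23.9 and 30.8 CPM to 12.2, 8.27 and 10.9 CPM (log2 fold change -1.49, SE 0.22, adjusted p = 0.00233). It was at 8.94, 8.76 and 6.66 CPM in wild type, so the double mutant was nearer to wild type than isp-1 was. The isp-1;sod-3 libraries were at 11.8, 18 and 11.6 CPM. The gene sysm-1 fell from 20.5 ± 1.44 to 6.43 ± 2.01 CPM and the fatty acid and retinol binding protein gene far-3 from 8.41 ± 1.97 to 3.04 ± 1.1 CPM (SD, n = 3). The sysm-1 call was lost without any one isp-1 library and without the first or the second isp-1;sod-5 library (adjusted p up to 0.12). The far-3 call, with an adjusted p of 0.0481, was lost in 13 of 26 alternative settings.

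**Figure D2:**
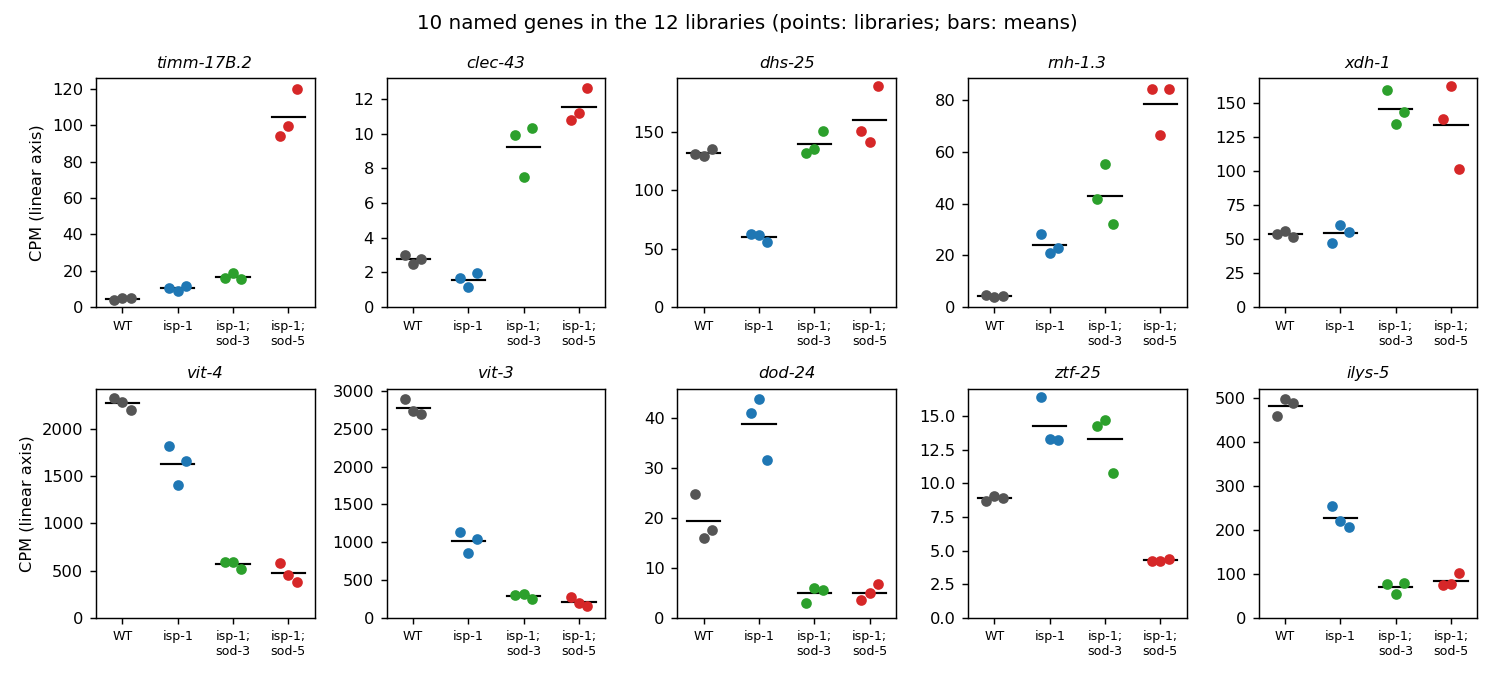
The CPM of every library (points) and the group mean (bars) on linear axes from 0, for 5 genes that rose and 5 that fell in isp-1;sod-5 against isp-1. The timm-17B.2 and ztf-25 levels of isp-1;sod-5 stand apart from all 9 other libraries, at 94.4 to 120 CPM and 4.23 to 4.4 CPM, while for vit-3, vit-4, dod-24 and ilys-5 both double mutants are low. For clec-43, dhs-25, rnh-1.3 and xdh-1 both double mutants lie above isp-1.

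Most yolk protein genes fell. Vitellogenins are lipid-carrying proteins that the adult intestine makes and secretes for uptake by oocytes. All 6 vitellogenin genes had a lower mean in isp-1;sod-5, 4 were called lower and none higher, and the median log2 fold change of the 6 was -1.28 against 0.05 over all tested genes. The share called lower over all tested genes was 0.564%. The gene vit-3 fell from 1139, 860 and 1037 CPM in isp-1 to 278, 195 and 157 CPM (log2 fold change -2.3, SE 0.18, adjusted p = 1.16e-05). The gene vit-4 fell from 1821, 1408 and 1667 CPM to 579, 452 and 380 CPM (log2 fold change -1.81, SE 0.14, adjusted p = 1.16e-05). For both, the double mutant libraries lay far under isp-1, which in turn lay under wild type at 2697 to 2890 CPM for vit-3 and 2207 to 2328 CPM for vit-4.

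The gene vit-1 went from 4338, 3400 and 4250 CPM to 2099, 1692 and 1229 CPM (log2 fold change -1.28, adjusted p = 0.00153) and vit-5 from 9033, 6651 and 7859 CPM to 4313, 3266 and 2299 CPM (log2 fold change -1.29, adjusted p = 0.00293). Under quantile normalization vit-5 lost its call. The 2 that were not called were vit-2 at 22660, 17918 and 20525 CPM in isp-1 and 18696, 14227 and 11374 CPM in isp-1;sod-5, and vit-6 at 30156, 23341 and 26246 CPM against 24560, 19081 and 14208 CPM. Each had a log2 fold change of -0.49, with the groups overlapping. Vitellogenin genes share long stretches of sequence, vit-3 with vit-4 most of all, so their separate counts are uncertain.

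The vitellogenin deviation was largest in the third isp-1;sod-5 library. As a mean log2 deviation from isp-1, the 6 genes were at -0.89, -1.28 and -1.66 in the 3 double mutant libraries. Without the third library the 4 calls stood and the list's median was -1.06. The called genes have 4870 to 5088 bases of exon. In the bin of the longest genes the median deviation of the 3 double mutant libraries was -0.05, 0.08 and -0.38. With the length trend removed the list had 4 lower calls and a median of -1.14. The part of the length trend in the third library's value was not tested. These are bulk whole-worm samples, in which fewer cells of a type and less RNA per cell cannot be told apart. The 8 intestine markers summed to 1838 to 2274 CPM in isp-1;sod-5 and 1859 to 1961 CPM in isp-1, and the 10 oocyte markers to 9157 to 11129 CPM and 9287 to 10702 CPM.

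Of the genes that handle metals, 3 heme genes rose. C. elegans cannot make heme and takes it up from its bacterial food, and the hrg genes take part in its transport and in signalling between tissues. Of 20 iron and metal handling genes tested, 3 were called higher and none lower, all 3 of them hrg genes, and the median log2 fold change of the list was 0.08. The share called higher over all tested genes was 0.642%, and their median was 0.05. The endolysosomal heme importer hrg-1 was at 27.1, 37.4 and 47.8 CPM in isp-1 and 95.3, 96.3 and 87.6 CPM in isp-1;sod-5 (log2 fold change 1.34, SE 0.19, adjusted p = 0.00223). The epidermal hrg-2 went from 13.3, 13.9 and 12.6 CPM to 25.1, 43.2 and 44.9 CPM (log2 fold change 1.43, SE 0.24, adjusted p = 0.00684). The secreted protease-like hrg-7, which carries heme status from the gut to other tissues, went from 386, 465 and 476 CPM to 772, 927 and 828 CPM (log2 fold change 0.93, SE 0.12, adjusted p = 0.00111). For all 3 genes wild type was lowest, with means of 17.2, 1.78 and 248 CPM. The means of isp-1;sod-3 were 94.6, 36.6 and 874 CPM, against 93.1, 37.7 and 842 CPM in isp-1;sod-5. As in every called gene, the groups compared did not overlap. Ferritin, metallothionein and the other members of the list were not called.

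Enzymes of propionate breakdown include 3 that rose, in a list added after the values had been seen. Propionate is cleared either by a vitamin B12-dependent route or by a B12-independent shunt. Of 16 genes of both routes tested, 3 were called higher and none lower, with a list median of -0.01, where 0.642% of all tested genes were called higher. The 3 called genes act in the shunt. The shunt dehydrogenase hphd-1 went from 386, 385 and 346 CPM to 735, 793 and 648 CPM (log2 fold change 0.96, SE 0.10, adjusted p = 0.000274). The shunt hydrolase hach-1 went from 179, 182 and 150 CPM to 296, 307 and 311 CPM (log2 fold change 0.84, SE 0.10, adjusted p = 0.000553), and the enoyl-CoA hydratase ech-6 from 476, 468 and 427 CPM to 692, 716 and 739 CPM (log2 fold change 0.65, SE 0.11, adjusted p = 0.00923). As in every called gene, the groups did not overlap. Wild type means were 491, 340 and 496 CPM, so isp-1 had the lowest mean of the 4 genotypes in all 3. The means of isp-1;sod-3 were 723, 310 and 712 CPM, against 725, 304 and 716 CPM in isp-1;sod-5. The ech-6 call was lost without the third isp-1 library (adjusted p = 0.0757).

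**Figure D3:**
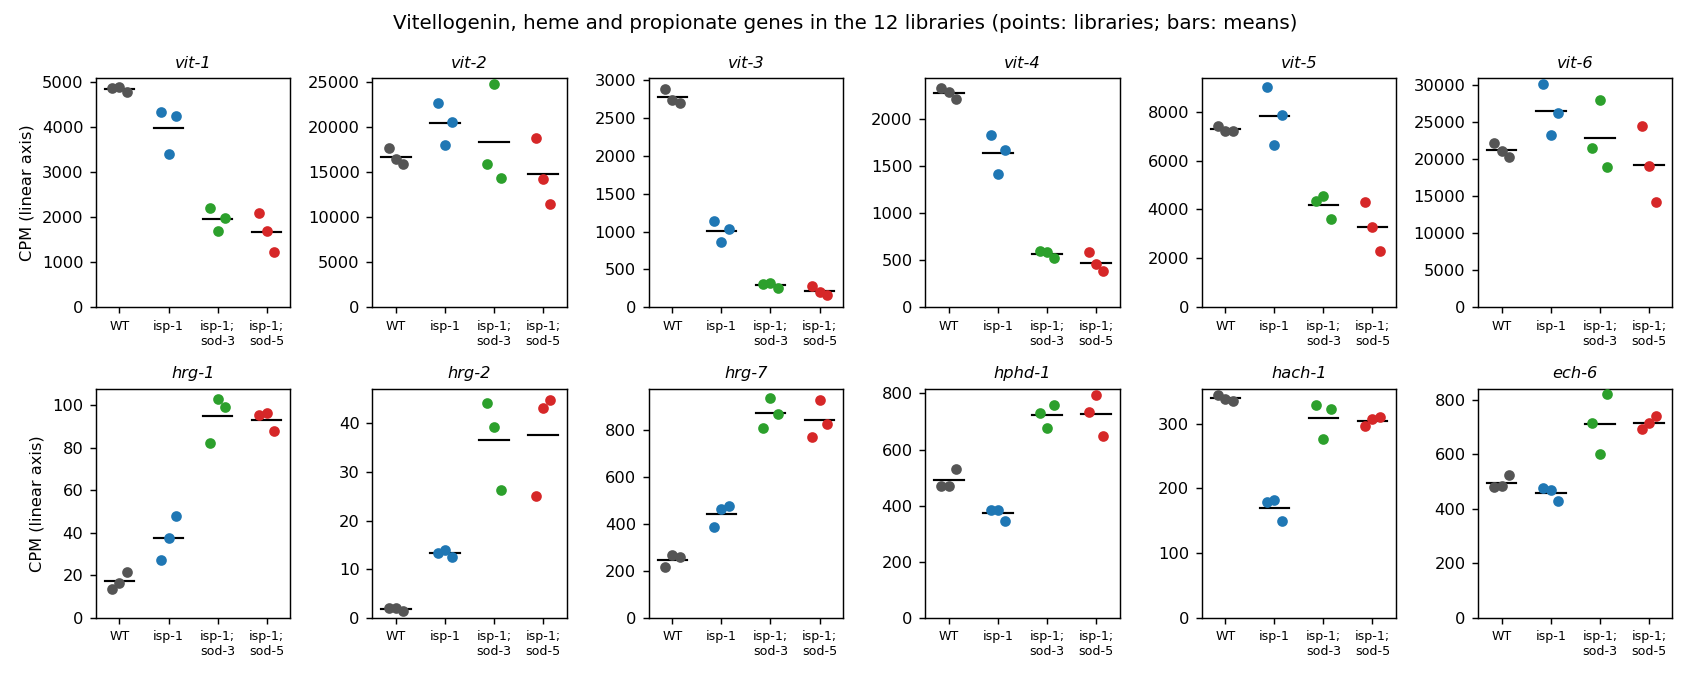
The CPM of every library (points) and the group mean (bars) on linear axes from 0, for the 6 vitellogenin genes (top row) and for 3 heme and 3 propionate genes (bottom row). In isp-1;sod-5, vit-3 falls to 157 to 278 CPM from 860 to 1139 CPM in isp-1, while hrg-1 rises to 87.6 to 96.3 CPM from 27.1 to 47.8 CPM.

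Genes of fat use moved in both directions. Of 71 fatty acid oxidation and lipase genes tested, 3 were higher, 1 was lower and 67 were not called, with a median of -0.04. Among all tested genes 0.642% were called higher and 0.564% lower. The lipase gene lips-15 rose from 42.9, 45.2 and 40.1 CPM to 65.7, 72.3 and 84.8 CPM (log2 fold change 0.78, adjusted p = 0.00125), and the acyl-CoA dehydrogenase acdh-9 rose by 0.53 on the log2 scale (adjusted p = 0.0225). The third called higher gene was ech-6, given above. The acyl-CoA synthetase acs-22 fell from 50, 46.1 and 43.8 CPM to 28.5, 31.8 and 25.6 CPM (log2 fold change -0.70, adjusted p = 0.00993). The acdh-9 call was lost in 7 of 27 settings, among them the omission of any one isp-1 library, and acs-22 lost its call without the first or the second isp-1 library. With TMM factors the list had 3 higher and 4 lower calls, and with the length trend removed 4 and 4. None of 21 fatty acid desaturase and elongase genes, 23 genes of glycolysis and gluconeogenesis or 26 of the tricarboxylic acid and glyoxylate cycles was called. At the 1.21% called over all tested genes, few or no calls fall in lists of these sizes. The desaturase and elongase list had 1 lower call with TMM factors or with the length trend removed, and 2 without the third isp-1;sod-5 library. The list of the tricarboxylic acid and glyoxylate cycles had 1 higher call with the length trend removed.

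Calls among the listed detoxification genes were 8 lower and 1 higher over 3 families. Over all tested genes 0.564% were called lower and 0.642% higher. Of 57 cytochrome P450 genes tested, which oxidize lipids and foreign compounds, 4 were lower and 1 was higher, with a median of -0.05; with TMM factors or with the length trend removed 7 were lower and 1 higher. The gene cyp-35C1 went from 8.07, 7.67 and 7.58 CPM in isp-1 to 1.5, 1.47 and 1.6 CPM in isp-1;sod-5 (log2 fold change -2.03, SE 0.26, adjusted p = 0.00107), and cyp-35A2 from 29.4, 26.3 and 30.4 CPM to 10.9, 9.19 and 11.3 CPM (log2 fold change -1.42, SE 0.20, adjusted p = 0.00198). The spread within each group was small beside these gaps. The gene cyp-25A1 fell by 1.49 on the log2 scale (adjusted p = 0.0013), and cyp-34A8 rose from 43.1, 37.9 and 42.2 CPM to 64.7, 78.7 and 78.1 CPM (log2 fold change 0.84, adjusted p = 0.00198). Of 57 UDP-glucuronosyltransferases, which attach sugars to small molecules, ugt-22, ugt-25 and ugt-33 were lower and none was higher, with a median of -0.21. All 3 were lost as calls under several settings, among them the omission of any one isp-1 library, and without the first isp-1;sod-5 library the list had 1 higher and 0 lower calls. Of the 36 glutathione S-transferases in the list, gst-10 alone was called, at 46.6, 44.8 and 44.7 CPM in isp-1 and 19.5, 21.9 and 32.3 CPM in isp-1;sod-5 (log2 fold change -0.91, adjusted p = 0.024). It too lost its call without any one isp-1 library. The omega-class glutathione transferase gsto-1, called higher as given above, was not in this list.

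Oxidative stress lists held single calls in each direction. Of 23 thioredoxin, peroxiredoxin and glutathione genes, 1 was higher and 1 was lower, with a median of 0.15, where 1.21% of all tested genes were called. The glutathione peroxidase family gene gpx-8 rose from 1.17, 0.959 and 0.919 CPM to 6.11, 8.46 and 5.75 CPM (log2 fold change 2.25, SE 0.28, adjusted p = 0.000769). The methionine sulphoxide reductase msra-1, which repairs oxidized methionine, fell from 376, 436 and 287 CPM to 140, 204 and 126 CPM (log2 fold change -1.23, SE 0.20, adjusted p = 0.00749). The wild type mean for msra-1 was 196 CPM and the isp-1;sod-3 mean 139 CPM. The call was lost without the third isp-1;sod-5 library (adjusted p = 0.0516). Among 20 targets of SKN-1, the worm's Nrf factor, gst-10 was the only call and the median was -0.14. None of 7 dismutase and catalase genes was called.

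Proteostasis lists held no call. At the 1.21% called over all tested genes, few or no calls fall in lists of these sizes. None of 18 genes of the mitochondrial unfolded protein response was called (median 0.11). The mitochondrial chaperone hsp-6 was at 1150, 1164 and 1141 CPM in isp-1 and 1421, 1404 and 1303 CPM in isp-1;sod-5, non-overlapping but with an adjusted p of 0.249. None of 16 cytosolic heat shock genes (log2 fold changes from -0.24 to 0.44), of 22 genes of the endoplasmic reticulum response (median -0.03) or of 33 proteasome subunits (median 0.08) was called. In the mitochondrial import list, added after the values had been seen, timm-17B.2 and the outer membrane translocase subunit tomm-7 were called higher among 15 genes. The share called higher over all tested genes was 0.642%. The gene tomm-7 went from 42, 48.2 and 48 CPM to 71.1, 64.7 and 78.9 CPM (log2 fold change 0.63, adjusted p = 0.00744), and it lost its call without the first isp-1 library or with the length trend removed (adjusted p = 0.153).

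Genes tied to innate immunity and digestion moved in both directions. Among all tested genes 0.642% were called higher and 0.564% lower, with a median of 0.05. Of 91 C-type lectin genes, 3 were higher and 3 lower, with a median of -0.03. With TMM factors the split was 3 higher and 6 lower, and with the length trend removed 3 and 9. The lower ones included clec-41, from 96.9, 109 and 92.8 CPM to 51.3, 69.5 and 57.7 CPM (log2 fold change -0.75, adjusted p = 0.00679), a call lost without the second isp-1 library (adjusted p = 0.053). Of 10 lysozyme genes, whose products digest bacterial cell walls, 2 were lower and none higher, with a median of -0.46. The invertebrate-type lysozyme ilys-5 fell from 254, 219 and 206 CPM to 73.8, 76.1 and 102 CPM (log2 fold change -1.43, SE 0.16, adjusted p = 0.000274), and wild type was the highest genotype at 459, 497 and 487 CPM. The gene lys-4 fell by 0.96 on the log2 scale (adjusted p = 0.0119), a call lost without the first or second isp-1 library or the third isp-1;sod-5 library. Of 6 infection response genes, irg-8 was lower, at 142, 164 and 114 CPM in isp-1 and 42.4, 51.1 and 52.7 CPM in isp-1;sod-5 (log2 fold change -1.50, SE 0.17, adjusted p = 0.000293).

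Of 15 epidermal antimicrobial peptide genes, nlp-28 and nlp-29 were higher and none was lower, with a median of 0.38. Among all tested genes 0.642% were called higher and 0.564% lower. The gene nlp-28 went from 22.3, 19.7 and 21.5 CPM to 41.6, 38.8 and 62.9 CPM (log2 fold change 1.12, SE 0.17, adjusted p = 0.003), with the third double mutant library the highest. The nlp-29 call was lost in 10 of 27 settings, among them the replicate block and the omission of any one isp-1 library. Without the third isp-1;sod-5 library the list had 1 higher call and a median of 0.14, and with the length trend removed it had 2 higher and 1 lower. Of 21 gut proteases, the cathepsin B-like cpr-5 rose from 551, 585 and 566 CPM to 1065, 1080 and 1152 CPM (log2 fold change 0.95, adjusted p = 0.00212). The aspartyl protease asp-14 fell from 42.9, 38.5 and 38.5 CPM to 7.62, 10.1 and 18.7 CPM (log2 fold change -1.77, SE 0.26, adjusted p = 0.00258). The median of this list was 0.17.

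Longevity-linked lists were split, where 0.642% of all tested genes were called higher and 0.564% lower. Of 21 genes activated by DAF-16, the saposin-like spp-1 rose from 47.1, 45.9 and 43.7 CPM to 68.2, 75 and 73.1 CPM (log2 fold change 0.66, adjusted p = 0.00212) and dao-3 fell by 0.54 on the log2 scale (adjusted p = 0.0414); the median was 0.07. The spp-1 call was lost with the length trend removed (adjusted p = 0.0892). The dao-3 call was lost in 13 of 27 settings, among them the replicate block and the omission of any one isp-1 or isp-1;sod-5 library (adjusted p up to 0.204). In the 19-gene list of the hypoxia factor HIF-1, the flavin monooxygenase fmo-2, whose induction is known to extend worm lifespan, fell from 6.53, 7.76 and 7.93 CPM to 1.5, 1.65 and 1.15 CPM (log2 fold change -2.03, SE 0.20, adjusted p = 0.000104). Wild type was listed at 0.031, 0 and 0.119 CPM, so the double mutant stayed above wild type while lying well under isp-1. The higher call of that list was hphd-1.

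Among structural families, collagens gave 3 calls. Of 150 collagen genes, col-135, col-101 and col-121 were lower and none was higher, while the list's median was 0.35 and 0.564% of all tested genes were called lower. The gene col-135 went from 44.7, 29 and 33.9 CPM to 15, 12.9 and 14.1 CPM (log2 fold change -1.31, SE 0.16, adjusted p = 0.000698). The col-135 call stood in all 27 settings, while col-101 lost its call in 11 of 27 and col-121 in 15 of 26, in both cases without any one isp-1 library among others. Mean collagen levels, as log2 deviations from isp-1, were -0.26, 0.44 and 0.47 in the 3 isp-1;sod-5 libraries, so the first lay below isp-1 and the other two above. Of 58 hedgehog-related and patched-related genes, ptr-25 was lower (log2 fold change -1.18, adjusted p = 0.00198). Of 223 F-box, MATH and BTB genes, which mostly encode adaptors of ubiquitin ligases, fbxa-24, bath-45, fbxa-192 and fbxa-166 were higher and none was lower, with a median of 0.01, where 0.642% of all tested genes were called higher. Without the third isp-1;sod-5 library 1 was higher and 1 lower. The fbxa-24 call stood in all 27 alternative settings, while bath-45 lost its call in 6 of 27, fbxa-192 in 9 of 27 and fbxa-166 in 14 of 26, each without any one isp-1 library among them. None of 168 nuclear hormone receptors, 69 molting genes, 49 transthyretin-related genes or 27 histone genes was called.

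**Figure D4:**
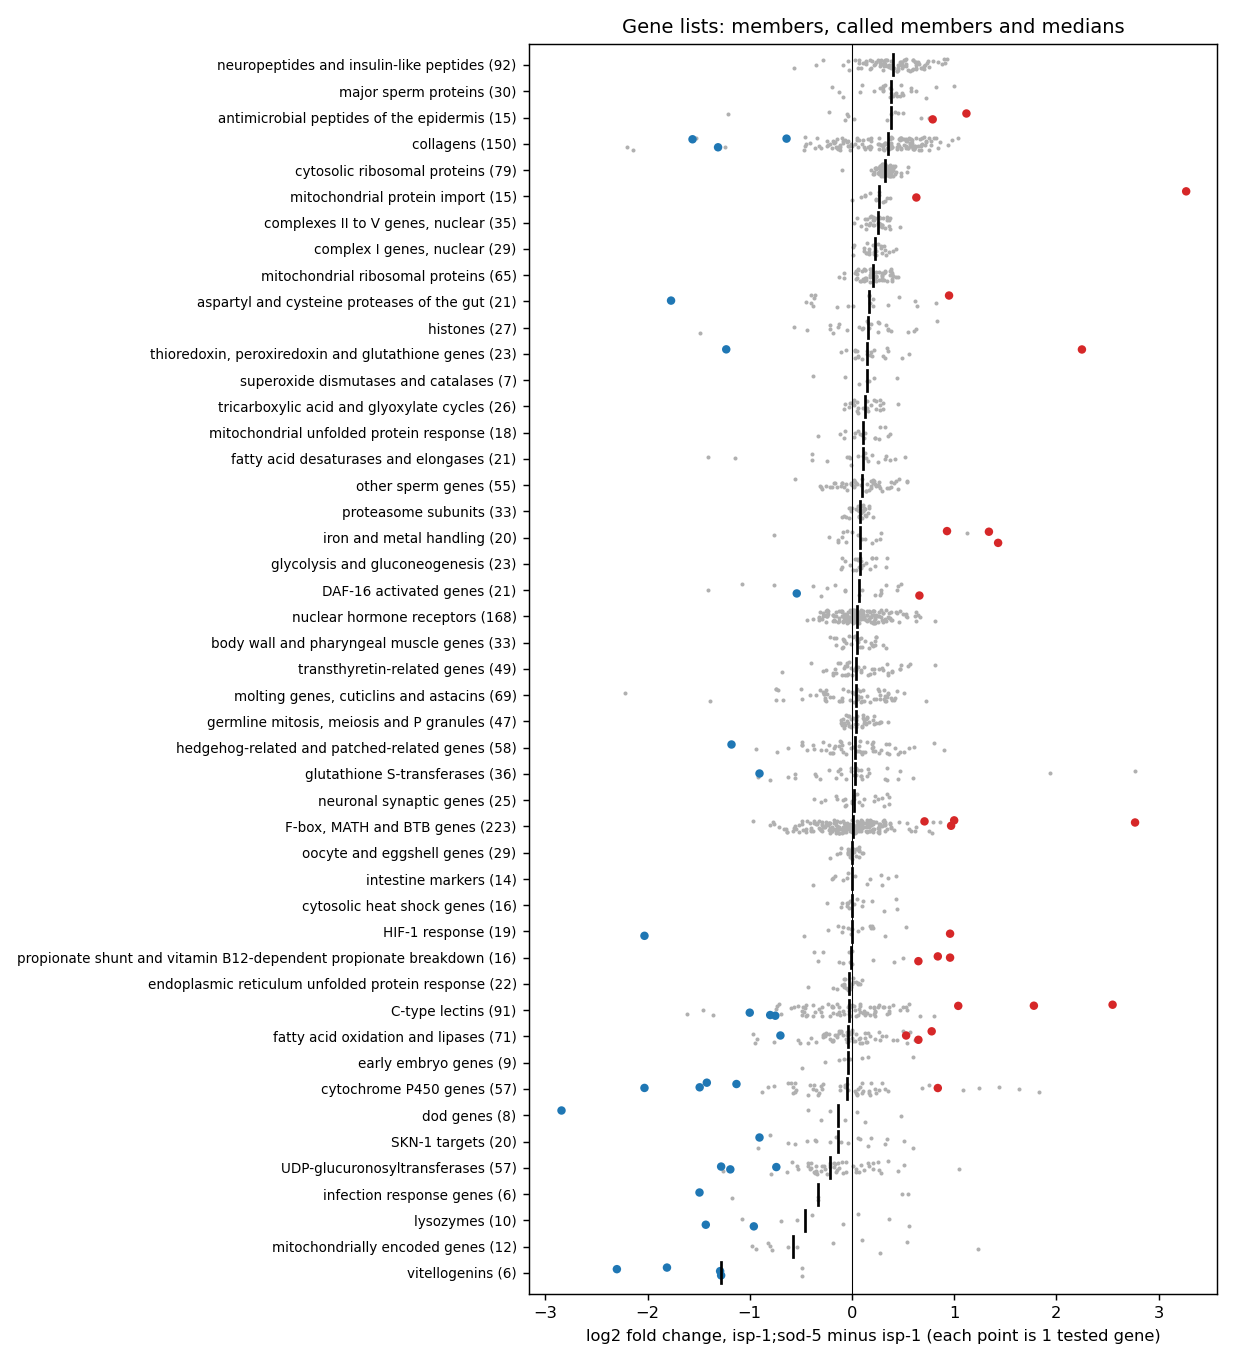
Log2 fold change of isp-1;sod-5 minus isp-1 for every tested member of 47 gene lists (tested members in brackets). Grey points are members not called, red and blue points are members called higher and lower, and black bars are list medians, which run from -1.28 for vitellogenins to 0.40 for neuropeptides and insulin-like peptides.

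Several lists had nearly all members on the positive side without a single call, where 1.21% of all tested genes were called. All 29 nuclear complex I genes and all 35 nuclear genes of complexes II to V had a positive log2 fold change, with medians of 0.23 and 0.25, against a positive share of 59% and a median of 0.05 over all tested genes. The same held for 78 of 79 cytosolic ribosomal protein genes (median 0.32), 62 of 65 mitochondrial ribosomal protein genes (median 0.21) and 86 of 92 neuropeptide and insulin-like genes (median 0.40). The third isp-1;sod-5 library was the highest each time: the ribosomal list deviated from isp-1 by 0.22, 0.17 and 0.57 in the 3 libraries, and the neuropeptide list by 0.03, 0.28 and 0.89. Without that library the medians were 0.13 for complex I, 0.14 for complexes II to V, 0.19 for cytosolic ribosomal proteins, 0.12 for mitochondrial ribosomal proteins and 0.19 for neuropeptides. With the length trend removed they were 0.10, 0.12, 0.13, 0.09 and 0.23 in the same order, and 1 neuropeptide gene was then called higher. Of the neuropeptide genes, 67 of 92 were positive without the third isp-1;sod-5 library, and 6 were called higher without the first (median 0.62). The part of the length trend in these shifts was not tested beyond these values.

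The 12 protein genes of the mitochondrial genome had a median of -0.58 with no call and a wide spread. Cytochrome oxidase subunit COX3 was at 2256, 2869 and 2096 CPM in isp-1 and 725, 1268 and 2926 CPM in isp-1;sod-5 (log2 fold change -0.78, SE 0.54, adjusted p = 0.628). The third double mutant library was above all isp-1 libraries and the other 2 were below them. The list's median was -0.94 without the third isp-1;sod-5 library and -0.12 without the first, with no call in either, while TMM factors and removal of the length trend each called 1 gene lower.

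Germline lists held no call. At the 1.21% called over all tested genes, few or no calls fall in lists of these sizes. None of 29 oocyte and eggshell genes (log2 fold changes from -0.21 to 0.11), 47 germline division genes (median 0.04), 55 sperm genes (median 0.10) or 30 major sperm protein genes (median 0.38) was called. The major sperm protein list deviated from isp-1 by 0.04, 0.35 and 0.73 in the 3 isp-1;sod-5 libraries and its members share reads. None of 33 muscle genes (median 0.05) or 25 synaptic genes (median 0.02) was called.

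The third isp-1;sod-5 library differed from the other 5 in how its levels depended on gene length. Across 13939 genes, the Spearman correlation between exon length and the log2 deviation from the isp-1 mean was -0.59 in that library and -0.05 in each of the other isp-1;sod-5 libraries. Genes are not independent replicates, and no test was made. In 10 bins of length, its median deviation went from 0.53 in the shortest genes (median 446 bases) to -0.38 in the longest (median 4089 bases), while the first and second stayed between -0.10 and 0.13. The ribosomal RNA gene rrn-3.1 was at 3368 CPM in the third library, against 63709 and 47622 CPM in the first and second and 38751 to 71155 CPM in isp-1. The called higher genes had a median exon length of 1207 bases and the called lower genes 1588 bases, against 1396 bases over all tested genes.

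Results that rest on this library were refitted without it. Of the 169 calls, 118 remained among the 148 called without the third isp-1;sod-5 library, which split into 70 higher and 78 lower. With the trend removed from every library there were 266 calls, 107 higher and 159 lower, of which 156 were shared with the 169. With the library left out and the trend removed as well, a setting chosen after seeing the data, there were 73 higher and 103 lower. Without the first isp-1;sod-5 library the split was 130 higher and 53 lower.

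**Figure D5:**
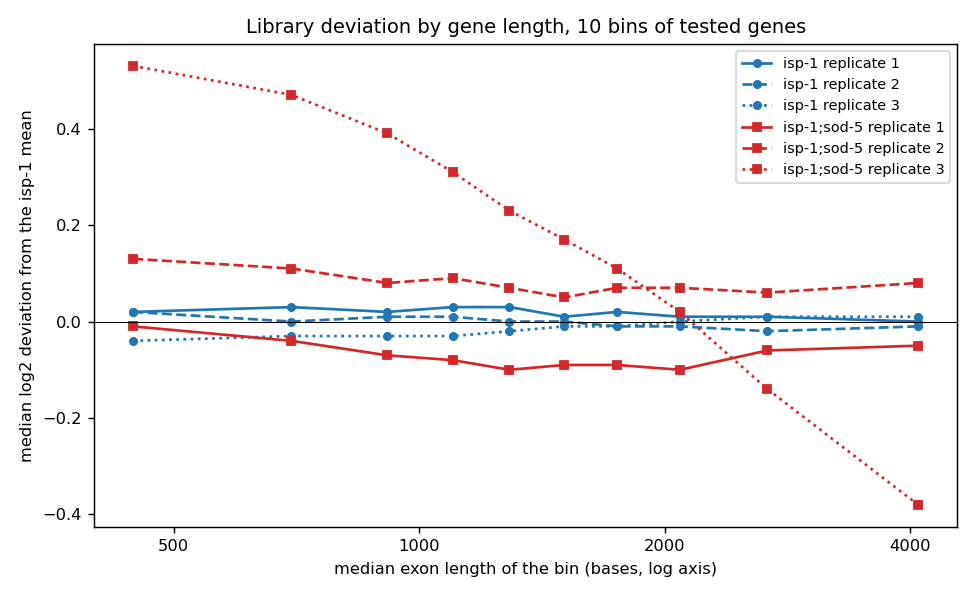
Median log2 deviation from the mean of the 3 isp-1 libraries in 10 bins of exon length (log axis, bases), for the 3 isp-1 (blue) and 3 isp-1;sod-5 libraries (red). The third isp-1;sod-5 library runs from 0.53 in the shortest to -0.38 in the longest bin, and the other 5 libraries stay close to 0.

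The series also holds the isp-1;sod-3 double mutant, in which the mitochondrial form is lost instead. Both double mutants are compared with the same isp-1 libraries, so their changes against isp-1 are not independent, and the test used here is the direct one between the double mutants. It called 15 of 14013 genes (0.107%), 11 higher and 4 lower in isp-1;sod-5. Of the 169 genes called against isp-1, 4 were also called against isp-1;sod-3: timm-17B.2, ztf-25, gpx-8 and F40D4.13, the last named after its values were seen. The 165 others missed the threshold in the direct test, which does not show that the double mutants were alike there. As a description, 87 of the 90 called higher and 78 of the 79 called lower genes lay within 1 log2 unit of their isp-1;sod-3 level, and 13973 of all 14013 tested genes did. The called higher genes had a median log2 difference of 1.07 from isp-1 and 0.16 from isp-1;sod-3. For the called lower genes these medians were -1.23 and -0.17, and for all tested genes 0.05 and 0.03. The called genes were picked by their distance from isp-1, which favours the larger value there.

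The direct differences varied between single genes. The log2 difference between isp-1;sod-5 and isp-1;sod-3 was -0.02 (SE 0.19) for hrg-1, 0.06 (SE 0.27) for dod-24, 0.06 (SE 0.17) for irg-8 and -0.51 (SE 0.18, adjusted p = 0.92) for vit-3. Larger differences that also missed the threshold were 0.89 (SE 0.21, adjusted p = 0.383) for C07G1.7, 0.88 (SE 0.18, adjusted p = 0.214) for rnh-1.3 and -0.72 (SE 0.20, adjusted p = 0.914) for fmo-2. In CPM, hrg-1 was at 82, 103 and 98.9 in isp-1;sod-3, inside and around the 87.6 to 96.3 of isp-1;sod-5. The gene vit-3 was at 306, 318 and 252 CPM in isp-1;sod-3, where 2 of 3 libraries lay above all of isp-1;sod-5.

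Of the genes that did separate the double mutants, gpx-8 was at 2.07, 2.28 and 0.774 CPM in isp-1;sod-3 against 5.75 to 8.46 CPM in isp-1;sod-5 (log2 difference 1.78, SE 0.28, adjusted p = 0.0248), a call that was lost in 14 of 25 alternative settings. F40D4.13 was at 40.6, 43.1 and 36.7 CPM in isp-1;sod-3 and 80.9, 75.4 and 77.2 CPM in isp-1;sod-5 (log2 difference 0.95, SE 0.13, adjusted p = 0.00675), lost only without the first isp-1;sod-3 library (adjusted p = 0.0502). The calls of timm-17B.2 and ztf-25 stood in all 26 settings.

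Called genes were spread over the chromosomes. Their share of tested genes was 0.643% on chromosome I, 1.19% on II, 0.548% on III, 1.22% on IV, 2.01% on V and 1.54% on X. Around sod-5 on chromosome II, 1 of 317 genes within 1 Mb was called (fbxa-24), 3 of 643 within 2 Mb and 15 of 1560 within 5 Mb, shares of 0.315%, 0.467% and 0.962% against 1.21% overall. A window around isp-1, added after the values were seen, held timm-17B.2, C07G1.7 and atic-1 among 373 genes within 1 Mb. The called share there was 0.804%, with 0.693% within 2 Mb and 1.08% within 5 Mb of isp-1, all below the 1.21% of all tested genes. C07G1.7 rose from 8.19, 7.23 and 7.81 CPM to 63.3, 71.2 and 76.4 CPM (log2 fold change 3.1, SE 0.21, adjusted p = 2.61e-06), and the purine synthesis gene atic-1 fell by 0.80 on the log2 scale (adjusted p = 0.0123).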

How the data were processed

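RNA of whole prefertile young adults was sequenced in 12 libraries made with a stranded mRNA kit, per the labels' protocols. The authors deposited 1 matrix of CPM values for 14326 genes on WBcel235. Alignment and counting tools in the submitters' processing notes were Subread 1.5.0 and featureCounts 1.4.6, and edgeR 3.14.0 is listed too. Whether counting used strand is not known from these sources, so overlapping and antisense genes cannot be told apart. Each deposited gene exceeded 1 CPM in at least 2 libraries. Low CPM values were whole multiples of 1 read (100.0% within 0.001 reads), which gave the depth of each library, 5438798 to 155071752 counted reads, and recovered reads for count tests as alternatives.

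Genes above 1 CPM in at least 3 libraries were tested with limma 3.58.1 (R 4.3.3; trend and robust) on log2(CPM + 0.5), with genotype as the factor in 1 fit of all 12 libraries and Benjamini-Hochberg adjustment over 14013 genes. Alternatives changed the pseudocount, filter, scaling, tool (edgeR 4.0.16, which called 199 genes, and DESeq2 1.42.0, which called 337, on recovered reads), libraries, weights, replicate block and length trend (loess, span 0.5). Leaving out rrn-3.1, combining the last setting with a left-out library, and all alternatives for the direct test of the double mutants were added after seeing the data. Scripts were tested on simulated counts. Exon lengths and names came from the Ensembl annotation of WBcel235, which held 14250 of the identifiers. The members and lists were chosen with earlier results of these data known. The text names, by rule, the dismutase genes with isp-1, the 12 strongest rises and the 12 strongest falls (called, named locus, non-overlapping groups, mean of 5 CPM or more), and up to 4 called members of each list or, where none was called, up to 2 of the most abundant. Intervals and limits of detection cover counting error only.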

Additional observations from a re-analysis of the deposited data

How the results depend on the processing

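Against 169 called genes (90 higher, 79 lower), the counts moved by more than 1.5 times in the following settings. DESeq2 on recovered reads called 337 genes, 147 higher and 190 lower. Removing the length trend gave 266 calls, 159 of them lower. Lower calls were 140 with TMM factors, 131 with median centring, 134 with quantile normalization, 123 with array weights, 51 with only the 6 libraries, 52 with the replicate block and 49 with a mean of at least 5 CPM. At an adjusted p below 0.01 there were 89 calls, 55 higher and 34 lower, and requiring a 2-fold change left 49 higher and 55 lower. Leaving out 1 library at a time gave 89 to 261 calls, 53 to 130 higher and 33 to 133 lower. For isp-1;sod-5 against isp-1;sod-3, DESeq2 called 28 genes in place of 15. The replicate block called 123 genes in all. Same-numbered isp-1 and isp-1;sod-5 libraries had correlations of their deviations of 0.20, 0.33 and -0.09, so the numbers were not taken to pair samples. Of 59 called genes named by rule, 33 were called in every one of up to 27 settings and 0 changed sign as a call. Calls rest on 3 libraries a group, and at 5438798 reads in the second isp-1;sod-5 library 3 reads are 0.552 CPM, which limits low genes.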

Other observations

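The 4 largest rises in genes outside the naming rule had no locus name and were chosen here after their values were seen. ZC15.3 went from 2.53, 2.44 and 2.53 CPM in isp-1 to 85.3, 67.7 and 110 CPM in isp-1;sod-5, a log2 fold change of 4.85 (SE 0.24, limma adjusted p = 9.47e-08), while wild type was at 0.373, 0.16 and 0.0954 CPM. F55B11.6 went from 1.11, 1.05 and 1.03 CPM to 22.5, 23.2 and 41.2 CPM (log2 fold change 4.18, SE 0.22), and F41G4.7 from 2.53, 3.57 and 2.41 CPM to 49.7, 33.3 and 74.6 CPM (log2 fold change 3.93, SE 0.35). The fourth, C07G1.7, is given above. In isp-1;sod-3 the means were 67.2, 19.7 and 44.8 CPM for ZC15.3, F55B11.6 and F41G4.7. T07D3.9 was at 59.7, 60.3 and 62.1 CPM in isp-1 and 221, 224 and 218 CPM in isp-1;sod-5 (log2 fold change 1.86, SE 0.09, adjusted p = 9.47e-08).

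Both subunits of the mitochondrial pyruvate carrier, which brings pyruvate into the matrix, were called higher, again noticed after the values were seen. The gene mpc-1 went from 76.6, 77.4 and 72.1 CPM to 112, 127 and 149 CPM (log2 fold change 0.76, SE 0.11, adjusted p = 0.00264) and mpc-2 from 87.4, 84.7 and 74.3 CPM to 108, 111 and 157 CPM (log2 fold change 0.59, SE 0.13, adjusted p = 0.0476). The third isp-1;sod-5 library was the highest for both. With 526 bases of exon, mpc-1 falls in the shortest length bin, where that library's median log2 deviation was 0.53. Whether either call holds without that library is not given here.

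Called genes often lay side by side. Of 168 called genes with a position, 25 (14.9%) had an adjacent tested gene called in the same direction, while 1.27% of all tested genes had a neighbour called higher and 1.12% one called lower. Among them were acd-1 with delm-2, nlp-28 with nlp-29, pud-3 with pud-4, vit-3 with vit-4, and hach-1 with nmad-1. How much of this comes from shared reads or overlapping transcripts was not tested.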
